A study of Rattus norvegicus with 48 samples.

Results

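The transcripts described here are those of the amyloid precursor family and of the proteases, called secretases, that cut it: App and Aplp2, the alpha-secretases Adam10 and Adam17, the beta-secretases Bace1 and Bace2, and Aph1a, a subunit of gamma-secretase. These 7 genes were listed by symbol and matched to Ensembl identifiers, and each of them was among the 13050 genes with at least 1 read in every sample. RNA was sequenced from cerebral endothelial cells (CECs) of male Wistar-Han rats with free access to food (ad libitum, AL) or without food for 1 day (F1), 2 days (F2) or 3 days (F3). No other treatment and no altered allele set the groups apart. For the isolation of cells, rats were anesthetized with diazepam and ketamine and perfused with buffer containing heparin. The cells came from pooled cerebral cortices, were depleted of CD11b-positive microglia and then sorted for CD31. Each group had 3 independent samples, named i, j and k here, and 4 technical replicates of each sample were summed. A sample thus stood for pooled rats and not for 1 animal.

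Amyloid precursor protein (APP) and its relatives cross the membrane once and are cut in steps. Alpha-secretases of the ADAM family cut APP within the amyloid-beta sequence and release its outer part, whereas BACE1 cuts in front of that sequence and leaves a stub from which gamma-secretase frees amyloid-beta. The same ADAM proteases shed many other surface proteins, ADAM17 among them the precursor of tumour necrosis factor, and ADAM10 Notch and cadherins. Endothelial cells of the brain make APP themselves, and amyloid-beta also crosses or collects at the vessel wall.

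The samples held between 20718644 and 25960874 reads assigned to genes. Pecam1, the gene of the CD31 antigen used in the sort, was read at 31655 to 38792 normalized counts (reads scaled to a common library size) in the 12 samples. Of 17 measured markers of endothelial and other cells, 1 passed the test in F1 and F3 rats against AL rats, the glucose transporter Slc2a1, which was higher. The summed pericyte and smooth muscle markers (3 of 9 measured, Abcc9, Anpep and Acta2) ranged from 1908 to 4372 normalized counts in AL rats, 2066 to 2365 after 1 day without food, 2451 to 4744 after 2 days and 1689 to 4443 after 3 days. Of these, the smooth muscle actin gene Acta2 lay higher in each F2 sample (236 to 366) than in each AL sample (130.4 to 211), as did 6.89% of all genes. Its log2 fold change was 0.83 (unadjusted p = 0.0141, adjusted p = 0.238 in edgeR's test), and its part in the results for F2 rats was not tested. The 6 of 10 microglial markers measured summed to at most 134 normalized counts in any sample. Markers not measured here had no identifier in the partial gene list used, which does not mean that their transcripts were absent. This held for all listed markers of neurons. Sample j of the F2 rats stood apart from the rest. It held the lowest or the highest value of the 12 samples at 47.9% of 9459 genes with a mean of at least 100 normalized counts, against 9.71% to 22.1% for each of the other 11, and the log2 fold changes and read ratios of the 7 genes in F2 rats are therefore given with and without it. The read ratios without it were added after seeing the data. Since the groups share 1 estimate of the spread, leaving F2 sample j out also changed the other comparisons with AL rats. The genes called went from 857 to 1468 of 13050 in F1 rats and from 1567 to 2382 in F3 rats. Among the 7 genes the calls in F1 and F3 rats stayed the same. In bulk RNA, fewer cells of a type and less RNA per cell cannot be told apart.

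Adam17 and Adam10 are shown first with the DNA in front of their starts, since they encode the main alpha-secretases and Adam17 passed the test on each fasting day whereas Adam10 passed on none. The 250 bases upstream of each RefSeq start are given 5′ to 3′ along the gene, on the GRCr8 build, which is not the build on which the reads were counted. They lie at chr6:46649345-46649594 on the minus strand for Adam17 and at chr8:80226612-80226861 on the plus strand for Adam10, and the start used for Adam17 lies inside the whole span of the gene. Capitals mark the GC box (GGGCGG) and the CCAAT box (CCAAT) on either strand.
Adam17: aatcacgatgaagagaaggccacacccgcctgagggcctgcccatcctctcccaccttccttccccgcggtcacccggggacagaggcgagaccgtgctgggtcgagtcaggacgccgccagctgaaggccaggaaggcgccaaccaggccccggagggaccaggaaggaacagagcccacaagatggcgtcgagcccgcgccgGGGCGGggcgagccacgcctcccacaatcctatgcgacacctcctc
Adam10: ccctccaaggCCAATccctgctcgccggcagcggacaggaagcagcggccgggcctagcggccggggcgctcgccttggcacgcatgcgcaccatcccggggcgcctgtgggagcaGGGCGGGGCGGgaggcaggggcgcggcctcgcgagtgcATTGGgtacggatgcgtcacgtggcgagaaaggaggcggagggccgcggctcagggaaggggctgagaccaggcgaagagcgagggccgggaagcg
The Adam17 stretch held 1 GC box, 46 bases before the start, and no CCAAT box. In the Adam10 stretch there were 2 GC boxes that share a base, 2 CCAAT boxes and 1 E-box (CACGTG). Neither held a TATA box (TATAAA) or a cAMP response element (TGACGTCA), searched on both strands, and none of these words contains another. Among 33469 rat promoters of this length, 30.5% held the GC box, 34.0% the CCAAT box, 5.59% the E-box, 12.9% the TATA box and 1.59% the cAMP response element. Promoter entries were found for 6 of the 7 genes, all but Bace2, and the 6 had between 52% and 74.4% of G and C against a median of 51.2% over all promoters.

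Adam17 was lower than in AL rats on each of the 3 fasting days. In AL rats its level was 6548, 6619 and 7059.7 normalized counts in samples i, j and k. It was 5491, 4974 and 5244 after 1 day without food, 5474, 4803 and 5038 after 2 days and 4633, 4736 and 4615 after 3 days. Every fasted sample thus lay below every AL sample, as was true of 14.1% of all genes for F1, 8.66% for F2 and 18% for F3. The F3 samples also lay below those of the other fasted groups. ADAM17, also called TACE, is the sheddase that frees tumour necrosis factor, its receptors and several adhesion molecules from the cell surface.

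The log2 fold change (LFC) of Adam17 against AL rats was -0.36 in F1 rats (SE 0.07, adjusted p = 0.00867 in edgeR's quasi-likelihood test, Benjamini-Hochberg over all genes tested), -0.40 in F2 rats (SE 0.07, adjusted p = 0.0177) and -0.53 in F3 rats (SE 0.07, adjusted p = 0.000397). As shares of the AL level these are falls of 22.3%, 24.3% and 30.9%. The joint test of all groups, which 9.98% of genes passed, gave an adjusted p of 0.0018. Adam17 was the only member of the set that passed in F1 rats, where 6.57% of all genes did (2.64% downward), and in F2 rats, where 0.92% did (0.383% downward). It ranked 226th, 45th and 109th of 13050 genes by p in F1, F2 and F3 rats, and was 1 of 32 genes, or 0.245% of those tested, that were lower on all 3 days. These 3 comparisons share the AL samples.

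Between the fasted groups no further step of Adam17 passed the test. Its means fell in the order AL (6742 ± 277), F1 (5236 ± 259), F2 (5105 ± 340.5) and F3 (4661 ± 65.2, SD, n = 3). F1 and F2 rats differed by an LFC of -0.04 with overlapping samples (adjusted p = 0.832). F3 rats were lower than F2 rats by an LFC of -0.13 (adjusted p = 0.292, 95% confidence interval -0.28 to 0.02) and than F1 rats by -0.17 (unadjusted p = 0.0312, adjusted p = 0.992), with no overlap of the samples in either case, as held downward for 12.1% of all genes in F3 against F2 and 7.13% in F3 against F1.

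With 1 of the 12 samples left out in turn, the Adam17 call was lost in 1 fit for F1 rats and in 2 fits for F2 rats. The LFC then ranged from -0.40 to -0.33 in F1 rats and from -0.45 to -0.36 in F2 rats. Without F1 sample j the adjusted p in F1 rats was 0.0562 at an LFC of -0.33, and in F2 rats it was 0.106 without AL sample k, 0.0522 without F2 sample k and 0.207 when only the 6 samples of AL and F2 rats were fitted. Of all 13050 genes, 305, 36, 92 and 0 passed in these 4 fits. Without F2 sample j the LFC in F2 rats was -0.36 (adjusted p = 0.0245). The call in F3 rats was kept with any sample left out, at adjusted p-values of at most 0.00387.

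**Figure D1:**
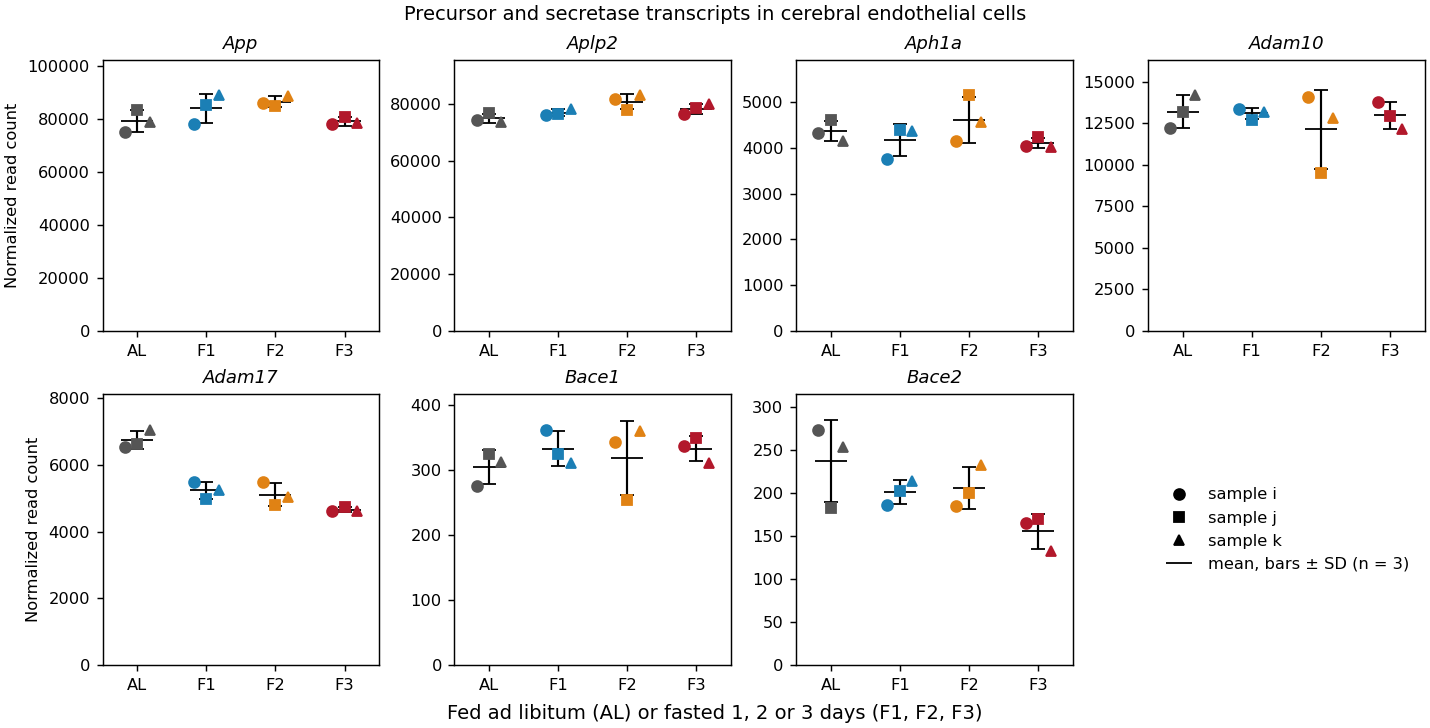
Normalized read counts (y axes, from 0, a scale per gene) of the 7 genes in each sample of AL, F1, F2 and F3 rats (x axes), with symbols for samples i, j and k and bars for the mean ± SD of 3 samples. All 9 fasted samples of Adam17 lie below the 3 AL samples, the Bace2 values of F3 rats (132 to 169) lie below those of all other samples, and F2 sample j is the lowest sample for Adam10 and Bace1 and the highest for Aph1a.

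Adam10, the constitutive alpha-secretase for APP, passed in no comparison. Its values were 12232, 13196 and 14174 normalized counts in the AL samples, 13383, 12711 and 13191 in F1, 14096, 9482 and 12834 in F2 and 13786, 12959.6 and 12159.5 in F3 rats. The groups overlapped throughout, and F2 sample j, at 9482, lay below every other sample. The LFC against AL rats was -0.01, -0.12 and -0.03 on the 3 days, with 95% confidence intervals that together ran from -0.38 to 0.25, and without F2 sample j the second value was 0.03. The intervals therefore leave room for changes between 0.77-fold and 1.19-fold.

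Because both alpha-secretases were counted in the same library, the ratio of their reads does not depend on the scaling between samples. It is not corrected for transcript length and is no ratio of molecules. The Adam17/Adam10 ratio was 0.535, 0.502 and 0.498 in AL rats, 0.410, 0.391 and 0.398 in F1 rats, 0.388, 0.507 and 0.393 in F2 rats and 0.336, 0.365 and 0.380 in F3 rats. F1 and F3 rats lay wholly below AL rats, whereas F2 sample j fell among the AL samples. On the log2 scale the ratio differed from AL rats by -0.36, -0.26 and -0.51 on the 3 days, with p-values of 0.1, 0.3 and 0.1 in a two-sided exact permutation test. With 3 samples against 3 this test cannot go below 0.1, and after adjustment over the 9 ratio comparisons made the p-values were 0.3, 0.45 and 0.3. Without F2 sample j the difference in F2 rats was -0.39, and the remaining F2 samples lay below the AL samples (exact permutation p = 0.2, unadjusted, with fewer samples).

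**Figure D2:**
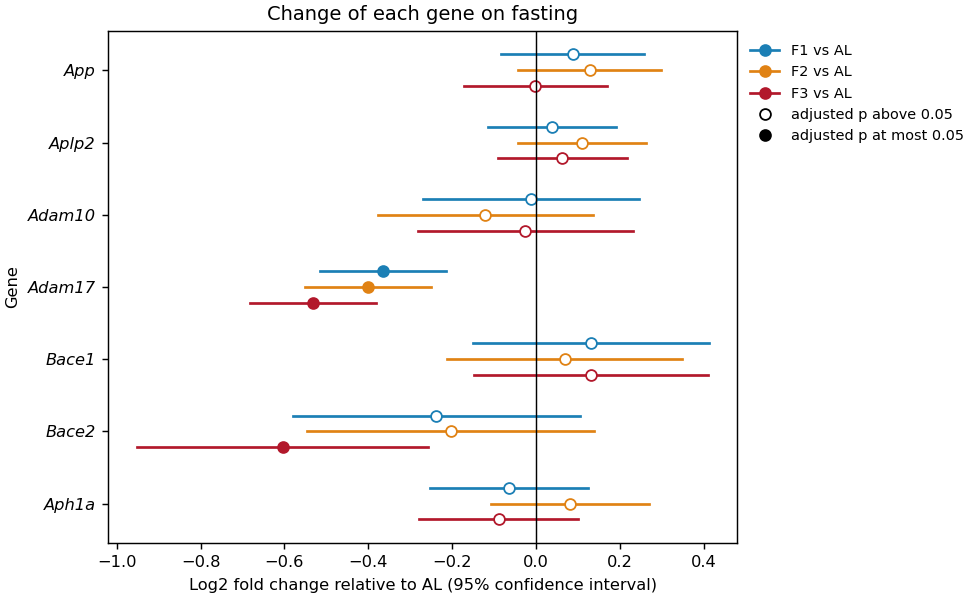
Log2 fold change against AL rats (x axis) of each of the 7 genes (y axis) in F1, F2 and F3 rats, where points are estimates, lines are 95% confidence intervals and filled points have an adjusted p of at most 0.05. The filled points are Adam17 on the 3 days, at -0.36, -0.40 and -0.53, and Bace2 in F3 rats, at -0.60.

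Among the beta-secretases, Bace2 fell in F3 rats and Bace1 passed in no comparison. Bace2 was read at 273, 183 and 253 normalized counts in the AL samples, 186, 202 and 214 in F1, 184, 199 and 233 in F2 and 165, 169 and 132 in F3 rats. The F3 samples lay below all others, while the AL samples were spread widely, with sample j at the level of the F1 and F2 samples. Of all genes, 18% had each F3 sample below each AL sample, 12.1% below each F2 sample and 7.13% below each F1 sample. BACE2 is a close relative of BACE1 that cuts APP mainly inside the amyloid-beta sequence.

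The LFC of Bace2 in F3 rats was -0.60 (SE 0.16, adjusted p = 0.0269), a fall of 34.2% with a 95% confidence interval of -0.95 to -0.26 for the LFC. Bace2 and Adam17 were the 2 of 7 genes that passed in F3 rats, where 12% of all genes did and 5.73% did so downward, and both were lower. In F1 and F2 rats the LFC of Bace2 was -0.24 and -0.20 (SE 0.16 each, adjusted p = 0.441 and 0.638), and the joint test gave an adjusted p of 0.11. With 1 sample left out these LFCs ranged from -0.39 (without AL sample j) to -0.11 (without AL sample i) in F1 rats and from -0.36 to -0.08 in F2 rats, where the same AL samples set the ends, and none passed (adjusted p of at least 0.156 and 0.33). Without F2 sample j the LFC in F2 rats was -0.18 (adjusted p = 0.692). F3 rats were lower than F2 rats by an LFC of -0.40 (unadjusted p = 0.0275, adjusted p = 0.163) and than F1 rats by -0.37 (unadjusted p = 0.0413, adjusted p = 0.992). Its means fell in the order AL (236 ± 47.7), F2 (205 ± 24.7), F1 (201 ± 14.1) and F3 (155 ± 20.3, SD, n = 3), and F1 and F2 rats differed by an LFC of 0.03 (adjusted p = 0.941).

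The Bace2 call rested on few reads and was lost in 4 of the 12 fits that left out 1 sample, with LFCs from -0.76 to -0.47. Bace2 had 133 to 297 reads per sample, for which counting alone gives an error of 5.80% to 8.67%. The adjusted p in F3 rats rose to 0.130 when AL sample i was left out, 0.0915 for AL sample k, 0.0654 for F3 sample i, 0.122 for F3 sample k and 0.0513 when only AL and F3 rats were fitted. The astrocyte marker Aldoc, the 1 of 6 measured, was also lower in each F3 sample (1545 to 1588 normalized counts) than in each AL sample (1825 to 2155), as were 18% of all genes. Its adjusted p was 0.111, and its part in the Bace2 result was not tested.

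Bace1, which makes the first cut on the way to amyloid-beta, was read at 275, 325 and 313 normalized counts in the AL samples, 363, 326 and 311 in F1, 344, 254 and 359.9 in F2 and 338, 350.1 and 312 in F3 rats. The LFC was 0.13, 0.07 and 0.13 on the 3 days, with adjusted p-values of at least 0.586 and intervals between -0.21 and 0.41. A rise of up to 1.33-fold lay within these intervals, and Bace1 had 256 to 364 reads per sample. F2 sample j was again the lowest, and without it the LFC in F2 rats was 0.21 (adjusted p = 0.395).

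Within libraries, the Bace2/Bace1 read ratio was 0.993, 0.562 and 0.809 in AL rats and 0.489, 0.483 and 0.424 in F3 rats. The F3 samples lay below the AL samples with no overlap, by -0.72 on the log2 scale (exact permutation p = 0.1, the smallest possible, adjusted p = 0.3). In F1 rats the ratio was 0.513 to 0.687 and in F2 rats 0.536 to 0.785, which overlapped the AL samples (exact permutation p = 0.3 and 0.4). The difference in F2 rats was -0.24 on the log2 scale, and -0.38 without F2 sample j (exact permutation p = 0.4, unadjusted).

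**Figure D3:**
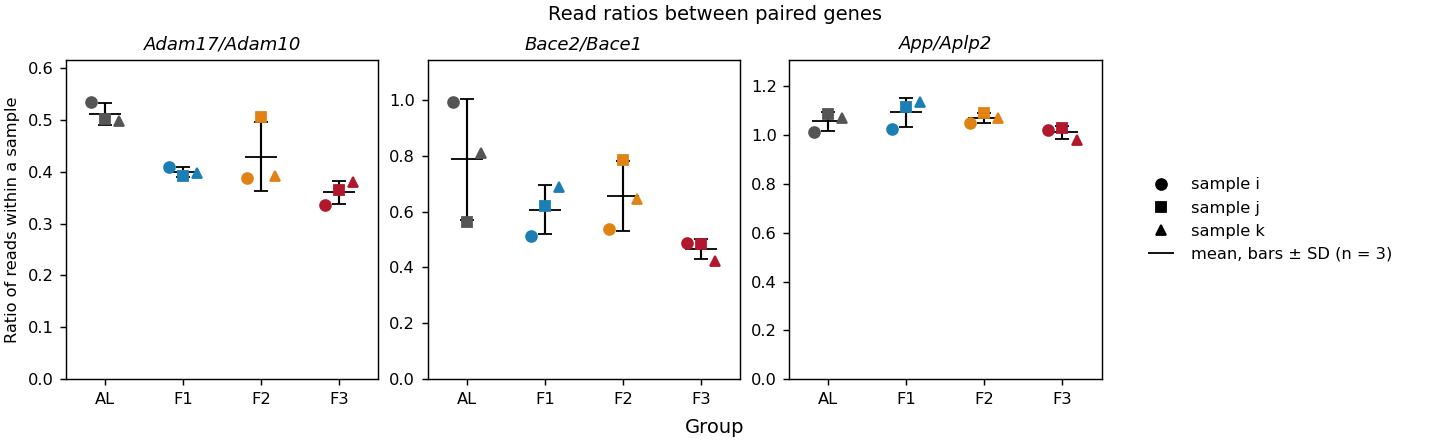
Ratio of reads of the gene pairs Adam17/Adam10, Bace2/Bace1 and App/Aplp2 (y axes, from 0) within each sample of AL, F1, F2 and F3 rats (x axes), with symbols for samples i, j and k and bars for the mean ± SD of 3 samples. The Adam17/Adam10 ratio is 0.498 to 0.535 in AL rats and 0.336 to 0.380 in F3 rats, and F2 sample j sits at 0.507.

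Neither precursor passed in any comparison, and over the 12 samples their coefficients of variation were 5.57% for App and 3.59% for Aplp2. App was read at 75304, 83491 and 78798 normalized counts in the AL samples, 78187, 85299 and 88966 in F1, 85916, 84873 and 88860.5 in F2 and 78012, 80943 and 78440.1 in F3 rats. All F2 samples lay above all AL samples, and the F3 samples lay within the AL range. The LFC was 0.09, 0.13 and 0.00 on the 3 days (SE 0.08 each, adjusted p = 0.584, 0.528 and 0.995).

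Aplp2 encodes the most widely expressed relative of APP, which lacks the amyloid-beta sequence. Its values were 74258, 76813 and 73589.5 normalized counts in the AL samples, 76162, 76429 and 78235 in F1, 81716, 77758 and 83013 in F2 and 76287, 78499.6 and 79932.5 in F3 rats. The LFC was 0.04, 0.11 and 0.06 (SE 0.07 each, adjusted p = 0.803, 0.546 and 0.637). As for App, the F2 samples did not overlap the AL samples, as was true upward of 6.89% of all genes. Without F2 sample j the LFC in F2 rats was 0.14 for each of the 2 genes (adjusted p = 0.436 for App and 0.366 for Aplp2). At 66233 to 88648 reads per sample, counting error was at most 0.389%, and the intervals against AL rats reached from -0.17 to 0.30 for App and from -0.11 to 0.26 for Aplp2. The App/Aplp2 read ratio lay between 0.981 and 1.14 in the 12 samples and its difference from AL rats was 0.05, 0.02 and -0.06 on the log2 scale on the 3 days (exact permutation p = 0.4, 0.7 and 0.3). The second of these was 0.01 without F2 sample j.

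Aph1a, which encodes the scaffold subunit of gamma-secretase, passed in no comparison. It was read at 4334, 4600.5 and 4159.8 normalized counts in the AL samples, 3766, 4396 and 4362 in F1, 4147, 5145 and 4554 in F2 and 4049, 4233 and 4026 in F3 rats. The groups overlapped, and F2 sample j was the highest of the 12. The LFC was -0.06, 0.08 and -0.09 (SE 0.09 each, adjusted p of at least 0.582), and without F2 sample j the value in F2 rats was 0.00. In the RefSeq annotation the spans of Bace1 and Aph1a each overlap 1 other protein-coding gene (Rnf214 and C2h1orf54), whose reads cannot be separated with certainty because the strand setting of the counting is not given in the sources used here.

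Over the whole set, Adam17 passed in 3 comparisons with AL rats and Bace2 in 1, each time downward, and the remaining 5 genes in none. The median LFC of the 7 genes was -0.01, 0.07 and -0.03 in F1, F2 and F3 rats, against 0.00, -0.01 and -0.01 over all genes. The median size of the change was 0.09, 0.12 and 0.09, against 0.16, 0.13 and 0.18 over all genes. Between fasted groups, edgeR called 0 of the 7 genes in each of the 3 comparisons, where 1.34% of all genes passed in F2 against F1 rats, 5.88% in F3 against F2 rats and 0% in F3 against F1 rats. At an unadjusted p under 0.05 there were 0, 1 (Bace2) and 2 (Adam17 and Bace2), against 17.4%, 22.1% and 4.49% of all genes, and DESeq2 called 0 in each. Of all 13050 genes, DESeq2 called 616 in F2 against F1 rats, 1228 in F3 against F2 rats and 24 in F3 against F1 rats. In F3 against F1 rats, 586 of all genes had an unadjusted p under 0.05 in edgeR's test.

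Adam17 and Bace2 were matched with the genes whose scaled counts, on a log2 scale, followed theirs most closely over the 12 samples, among 1260 genes with a symbol and a mean of at least 100 normalized counts. The symbols held here come mostly from the start of the alphabet, and genes without one were not compared. For Adam17 these were Arhgef15 (Pearson's r = 0.93), Anxa1, which encodes annexin A1 (r = 0.93), and Bcorl1, a transcriptional corepressor (r = 0.92), against a median r of 0.03. All 3 were lower in F3 rats, by LFCs of -0.79, -0.75 and -0.42. For Bace2 they were Bet1, a SNARE protein of transport vesicles (r = 0.87), Akna (r = 0.86) and Aig1 (r = 0.84), against a median r of 0.05. Bet1 and Aig1 were lower in F3 rats, by LFCs of -0.43 and -0.47 (adjusted p = 0.022 and 0.016), whereas Akna had -0.23 (adjusted p = 0.079). These coefficients describe the same 12 libraries, including their differences between groups, and carry no test. Because the genes were picked by these coefficients, their lower values in F3 rats follow in part from the choice. The LFCs and adjusted p-values of the picked genes are therefore no separate evidence. Among the 7 genes themselves, r was 0.64 between Adam17 and Bace2 and between App and Aplp2, 0.75 between Adam10 and Bace1, and -0.71 between Adam10 and Aph1a, the last 2 pairs being those in which F2 sample j lay at the extreme.

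**Figure D4:**
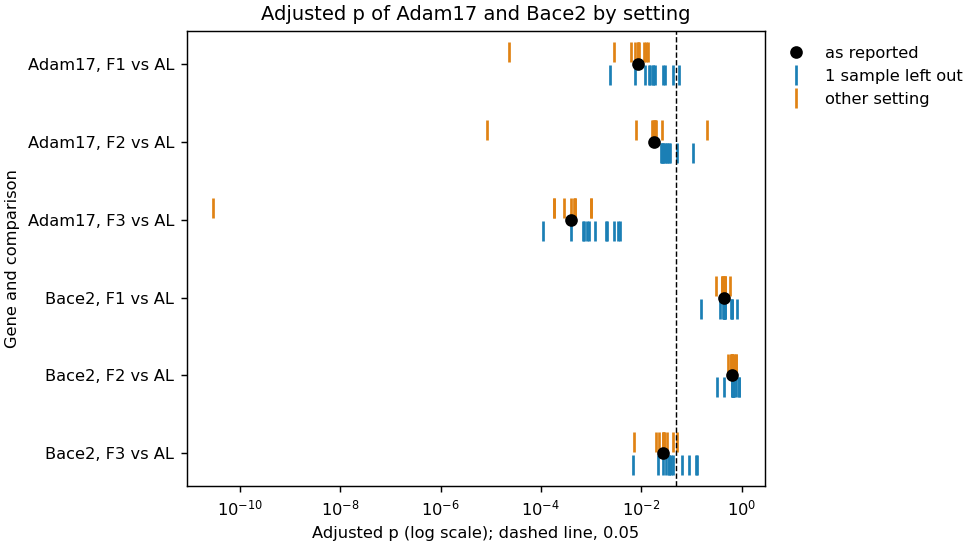
Adjusted p (x axis, log scale) of Adam17 and Bace2 in each comparison with AL rats (y axis), where dots are the values reported, blue ticks leave out 1 of the 12 samples, orange ticks change another setting and the dashed line is at 0.05. The Adam17 ticks in F3 rats all lie left of the line, at 0.00387 or less, whereas those of Adam17 in F1 and F2 rats and of Bace2 in F3 rats fall on both sides.

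Of 93 further genes tied to these proteins (kin, other ADAM proteases, adaptors, shed substrates, sorting and clearance), 35 had an identifier and were measured. In F1 rats 2 of the 35 passed (Aplp1 and Apbb2), in F2 rats 0, and in F3 rats 2 (Apbb2 and Bin1), each upward, where 3.92%, 0.536% and 6.28% of all genes passed upward. At an unadjusted p under 0.05 there were 5, 4 and 8, or 14.3%, 11.4% and 22.9% of the 35, against 20.8%, 13% and 26% of all genes. DESeq2 called 3, 1 (Adam15) and 3 of the 35, and 1241, 359 and 1879 of all 13050 genes. Their median LFC was 0.08, 0.07 and 0.05. Without F2 sample j, 1 of the 35 (Apbb2) passed in F2 rats, 7 had an unadjusted p under 0.05 and the median LFC was 0.07. Of all 13050 genes, 154 passed and 1867 had an unadjusted p under 0.05 in that fit.

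Aplp1, the relative of APP best known from neurons, was read at 2034, 2340.4 and 1868 normalized counts in the AL samples and at 2419.6, 2713 and 2652 after 1 day, with no overlap. The LFC was 0.32 in F1 rats (SE 0.08, adjusted p = 0.0407) and 0.24 and 0.11 in F2 and F3 rats (adjusted p = 0.238 and 0.458), with 0.20 in F2 rats without F2 sample j (adjusted p = 0.322). The call was lost without any of 9 of the 12 samples, with adjusted p-values of up to 0.161.

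Apbb2, an adaptor that binds the inner tail of APP, was read at 1307, 1390.4 and 1439.9 normalized counts in the AL samples, at 1934, 1839 and 1866 after 1 day and at 1832, 1666 and 1852 after 3 days. It rose in F1 rats (LFC 0.45, SE 0.09, adjusted p = 0.0107) and F3 rats (LFC 0.37, SE 0.09, adjusted p = 0.016). In F2 rats the values were 1721, 1356 and 1714, the LFC was 0.21 (adjusted p = 0.333), and without F2 sample j, which lay within the AL range, it was 0.32 (adjusted p = 0.0371). Leaving out AL sample i gave an adjusted p of 0.0539 in F1 rats and 0.0659 in F3 rats, and in F3 rats it was 0.0686 when F3 sample i was left out and 0.063 for F3 sample k.

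Bin1, which bends membranes in endocytosis, was read at 444, 495 and 384 normalized counts in AL rats and at 613, 562 and 612 in F3 rats. The LFC was 0.43 in F3 rats (SE 0.12, adjusted p = 0.0325) and 0.37 in F1 rats (adjusted p = 0.0861). The F3 call was lost without AL sample i or k or F3 sample i or k, at adjusted p-values of up to 0.110.

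**Figure D5:**
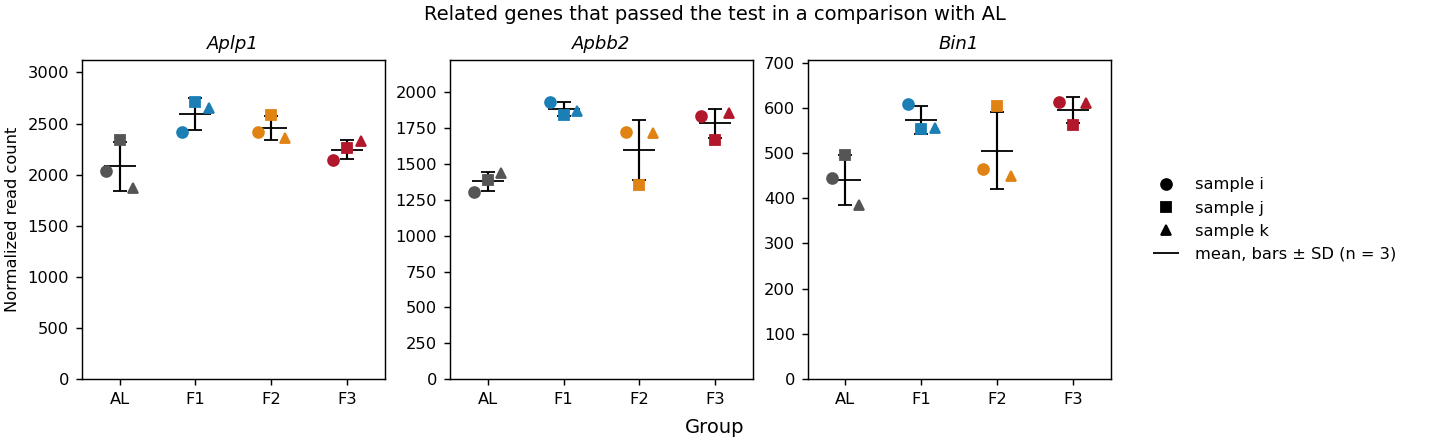
Normalized read counts (y axes, from 0) of Aplp1, Apbb2 and Bin1 in each sample of AL, F1, F2 and F3 rats (x axes), with symbols for samples i, j and k and bars for the mean ± SD of 3 samples. The Apbb2 values of F1 rats (1839 to 1934) and F3 rats (1666 to 1852) lie above those of AL rats (1307 to 1439.9), and F2 sample j lies among the AL samples.

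None of the 7 other membrane ADAM proteases measured passed in edgeR's test against AL rats on any day, with 0, 1 and 1 at an unadjusted p under 0.05 and 0, 1 (Adam15) and 0 called by DESeq2. In edgeR's test 6.57%, 0.92% and 12% of all genes passed on the 3 days, and 20.8%, 13% and 26% had an unadjusted p under 0.05. At these shares, 0 calls in lists of 3 to 8 genes do not set a list apart. The ADAM with the most reads among the 7, Adam15, had an LFC of -0.08, -0.23 and -0.16 (adjusted p = 0.581, 0.166 and 0.169), and Adam9 had 0.10, 0.08 and 0.09. In F2 rats, leaving out F2 sample j gave -0.23 for Adam15 (adjusted p = 0.151) and 0.18 for Adam9 (adjusted p = 0.269). Of the shed substrates 3 of 22 had an identifier in the gene list used, and the others were not looked up. Of these 3, 0 passed in edgeR or DESeq2 or had an unadjusted p under 0.05 against AL rats. The cell adhesion molecule Alcam had an LFC of 0.18, 0.06 and 0.14 with adjusted p-values of 0.295, 0.813 and 0.374, and 0.16 in F2 rats without F2 sample j (adjusted p = 0.323). Among 8 genes of amyloid-beta transport and degradation 0 passed in edgeR or DESeq2, with 0, 1 and 1 at an unadjusted p under 0.05. Of these, Abcb1a, the efflux pump P-glycoprotein, had an LFC of -0.01, 0.04 and 0.01, and Apoe, a lipid carrier that binds amyloid-beta, 0.02, 0.07 and -0.09. In F2 rats the values without F2 sample j were 0.13 for Abcb1a and -0.06 for Apoe. The efflux transporter Abcg2 had an LFC of 0.18, 0.37 and 0.23 (adjusted p = 0.467, 0.214 and 0.27). Each F2 sample lay above each AL sample (unadjusted p = 0.0107), as was true of 6.89% of all genes. Without F2 sample j the LFC of Abcg2 in F2 rats was again 0.37 (adjusted p = 0.245). The other subunits of gamma-secretase, the 5 partners of ADAM17 and the 6 tetraspanin partners of ADAM10 in the list were not analysed here.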

How the data were processed

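The authors depleted the cell suspension of CD11b-positive cells, sorted CD31-positive CECs, prepared strand-specific libraries of polyadenylated RNA, aligned the reads with STAR to Rnor_6.0 with Ensembl annotation, discarded multi-mapped reads and counted those on each gene with HTSeq 0.5.3. The deposited values are raw counts from 48 files, as whole numbers. bcl2fastq 2.18.0.12 is named in the submitters' processing notes. The strand setting is not given in the sources used here.

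The 4 technical replicates of each of the 12 samples were summed. Those of the 7 genes differed at p under 0.05 in 3 of 84 chi-square comparisons. Technical replicate d of F1 sample k carries labels that conflict. Its counts differed from its sister replicates by no more than sampling noise (chi-square over its degrees of freedom 1.00, p = 0.427, 11158 genes), it was kept, and an alternative leaves it out.

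Genes with at least 1 read in each sample were tested in R 4.3.3 by the quasi-likelihood test of edgeR 4.0.16 with TMM scaling, in 1 model of 4 group means, and p-values were adjusted by Benjamini-Hochberg over 13050 genes at a threshold of 0.05. For normalized counts, each library was scaled to the mean effective size of the 12. Standard errors and 95% intervals come from the same model, and log2 CPM had a prior count of 2. Read ratios were compared in Python 3.11.15. Alternatives were other scalings, DESeq2 1.42.0, other filters, only the 2 groups compared, the sample letter as a block and each sample left out. The fitting script was tested on simulated data.

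Symbols come from a gene list of the study held here only in part, so that 2043 of the 13050 genes have one and genes without one were not analysed here by name. Named are the 7 genes, every gene of the related lists that passed against AL rats with up to 3 others of each list with the most reads, and the 3 genes most correlated with each member that passed. The members and lists were chosen with earlier results of these data known.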

Additional observations from a re-analysis of the deposited data

How the results depend on the processing

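With 1 sample left out in turn, the number of the 7 genes called ranged from 0 to 1 in F1 rats, 0 to 1 in F2 rats, 1 to 2 in F3 rats and 1 to 2 in the joint test. Of all 13050 genes, 305 to 1468, 36 to 157, 784 to 2382 and 744 to 1782 were called in these fits. Fitting only the 2 groups compared gave 0 in F2 rats and 1 (Adam17) in F3 rats, where it called 0 and 1983 of all 13050 genes. With 0 genes called, the loss of Adam17 in F2 rats was not particular to it. DESeq2 gave 2 (Adam17 and Bace2) in the joint test, where it called 2090 of all genes. All other settings gave the counts reported. The direction of Adam17 and Bace2 was the same in each of the 22 alternatives on each day.

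Changes near 0 took the opposite sign, all without a call. The LFC of App in F3 rats was 0.003063 with DESeq2's size factors, 0.003066 in DESeq2's test, 0.004425 with upper-quartile scaling, 0.007162 with no filter, 0.007367 with at least 10 reads and 0.007288 with filterByExpr, and from -0.02477 to 0.03844 with 1 sample left out. That of Aplp2 in F1 rats was -0.02137 with total counts. With 1 sample left out, the LFC of Adam10 was -0.05781 to 0.04384 in F1 rats, -0.2425 to 0.02872 in F2 rats and -0.07174 to 0.0355 in F3 rats, that of Bace1 in F2 rats -0.02682 to 0.2096, and that of Aph1a -0.103 to 0.004636 in F1 rats and -0.004842 to 0.1518 in F2 rats. The cause was not tested.

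The labels give no shared origin for the sample letters. Deviations of same-letter samples from their group means correlated at -0.11 to 0.21 (median 0.05), above 0.1 in 7 of 18 pairs, against -0.25 to 0.28 (median -0.07) and 8 of 36 pairs of different letters. Not every same-letter pair exceeded 0.1, and the letters were not taken to pair the samples in the main model. With 3 samples per group these correlations cannot decide whether the letters pair them. The paper describes its biological replicates as independent experiments, which the labels do not tie to the letters. With the letter as a block the calls of the 7 genes were as reported, with an LFC of Adam17 in F3 rats of -0.53 and an adjusted p of 0.000999. Aplp1 in F1 rats and Bin1 in F3 rats also lost their call with total counts (adjusted p = 0.0726 and 0.0556), and Aplp1 did so with only the 2 groups compared (adjusted p = 0.0561). Bin1 in F1 rats passed in DESeq2's test (adjusted p = 0.0452) and without F2 sample j (adjusted p = 0.0204). Bace1 and Bace2 had the fewest reads of the 7 genes, at 133 to 364 per sample. For Bace2 the counting error was 5.80% to 8.67%, and the coefficient of variation in AL rats was 20.2%. The part of depth was not tested.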
